A study of Mus musculus with 3 samples.

Results

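The macrophages described here are the 581 cells, of 11640 in all, that the authors' cell table names Mac, which is their cluster 7. They were part of the CD45+ leukocytes of sciatic nerves, and 367, 106 and 108 of them lay in libraries 1, 2 and 3. All nerves came from mice of the genotype NOD.AIRE GW/+ at 15 weeks of age, which carry an altered copy of Aire on the autoimmune-prone NOD background. Nerves of another genotype were not analysed here, so the values compare classes of cells within the same nerves and say nothing of the mutation. By the labels, libraries 1 and 2 were sequenced from the 3′ end and library 3 from the 5′ end. The labels do not say whether a library is 1 mouse or a pool, and the spread between libraries may be partly technical. The macrophages are set against 4 other classes of the authors. These are 1950 B cells, 294 conventional dendritic cells (cDC), 175 plasmacytoid dendritic cells (pDC) and 1047 cells of the class gdT/NK/NKT. The last joins γδ T, NK and NKT cells. No ratio was taken against the authors' classes Cd4, Cd8, Treg, Mixed and Plasma.

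Macrophages of peripheral nerve clear myelin, lipid and dying cells, bind antibody through Fc receptors, and make complement proteins and chemokines that draw in other leukocytes. Some are long-lived residents of the nerve, and others derive from Ly6c2-positive blood monocytes that enter an inflamed nerve. Like B cells and dendritic cells they can load peptides on MHC class II, a step in which H2-DM exchanges peptides and H2-O holds H2-DM back.

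Values are counts per 1000000 UMIs (CPM) of a class in a library, after TMM scaling. Differences are log2 ratios within a library, with 5 CPM added to each side, which understates the change of low genes. A gene is counted as higher or lower where the level differed at least 2-fold in every library used. The pDC class had 2 cells in library 2, so its ratios rest on libraries 1 and 3. The classes were drawn by the authors from these same counts, so the ratios describe the class and are not used as a test of it.

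Macrophages made up 6.08%, 4.54% and 3.30% of the cells of libraries 1, 2 and 3 (exact 95% intervals 5.49 to 6.72, 3.73 to 5.47 and 2.71 to 3.97, counting error only). They held 11.2%, 8.17% and 5.08% of the UMIs. Their median depth was 7081, 9520 and 7437 UMIs per cell. This was 4175 ± 919 UMIs above the B cell median (SD, n = 3 libraries), higher in 3 of 3 libraries, while the difference from the cDC median was -1214 ± 830 UMIs, lower in 3 of 3. An exact two-sided sign-flip permutation test gave p = 0.25 for each, the smallest that 3 libraries allow. No cell in the count table had more than 2997 genes. Of the macrophages 10.1%, 30.2% and 38.0% had 2500 genes or more, against 0.553%, 6.74% and 8.92% of B cells. The share of cDC was above that of macrophages in each library. Whether cells with more genes had been removed was not tested, so the shares and depths describe the deposited cells only. In macrophages the median mitochondrial share of UMIs was 3.11%, 2.92% and 1.02%. The doublet caller Scrublet marked 3, 0 and 0 macrophages, which were kept. Libraries 1 and 2 shared 6 cell barcodes over all classes, and no macrophage barcode was shared.

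The libraries differ in 2 ways that touch the macrophages. First, the genes with counts differ. In library 3, 181 genes with at least 100 UMIs in the other libraries were at 0. In libraries 1 and 2 together 209 genes with at least 100 UMIs in library 3 were at 0. Antigen receptor segments such as Igkv3-4 and other genes such as Atp5md were among the 209. Why these genes were at 0 was not tested. A gene missing from a library cannot meet the rule of every library. Of the 10 macrophage genes with the widest range over libraries (Ifi30, Atp6v0c, Ndufb1-ps, Atp5mpl, Apoc2, Atp5md, Usmg5, Cd3e, Atp5o.1 and Nme2), 8 were at 0 in at least 1 library. Cd3e, at 0 in the macrophages of library 2, was found in 279 gdT/NK/NKT cells of that library. Second, the summed level of 6 T cell markers in macrophages differed between libraries and was highest in library 3, at 147, 22.9 and 875 CPM in libraries 1, 2 and 3. In B cells the same sum was 453, 125 and 837 CPM, and in cDC 104, 20.9 and 430 CPM. In pDC it was lower in library 3 (85.1 CPM) than in library 1 (140 CPM), and in gdT/NK/NKT it was 3542, 4928 and 2514 CPM. A Cd3e UMI was found in 5.99%, 0% and 36.1% of macrophages (1.19%, 0% and 18.8% when thinned to 1000 UMIs). The part of this RNA in the results was not tested.

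The marker genes given for the class were high in it, which in part restates how the class was drawn. Lyz2, which encodes lysozyme, was at 8319, 16134 and 6951 CPM in the macrophages of libraries 1, 2 and 3, and between 229 and 775 CPM in cDC. C1qa, a chain of the complement protein C1q, was at 5358, 7781 and 301 CPM, against 40.6, 69.6 and 22.0 CPM in cDC. Apoe, the lipid carrier apolipoprotein E, was at 22614, 60620 and 1680 CPM. Cxcl13, a chemokine that attracts B cells, was at 3906, 1688 and 164 CPM. It was found in a minority of the cells. When thinned to 1000 UMIs, 28.7%, 21.1% and 7.15% of macrophages had a Cxcl13 UMI, against 93.0%, 98.1% and 90.6% for Lyz2. For each of these 4 genes the macrophages were above every other class in every library used, and library 3 was the lowest of the macrophage libraries. All 10 fixed macrophage genes, among them Csf1r and Fcgr1, had UMIs in macrophages.

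**Figure D1:**
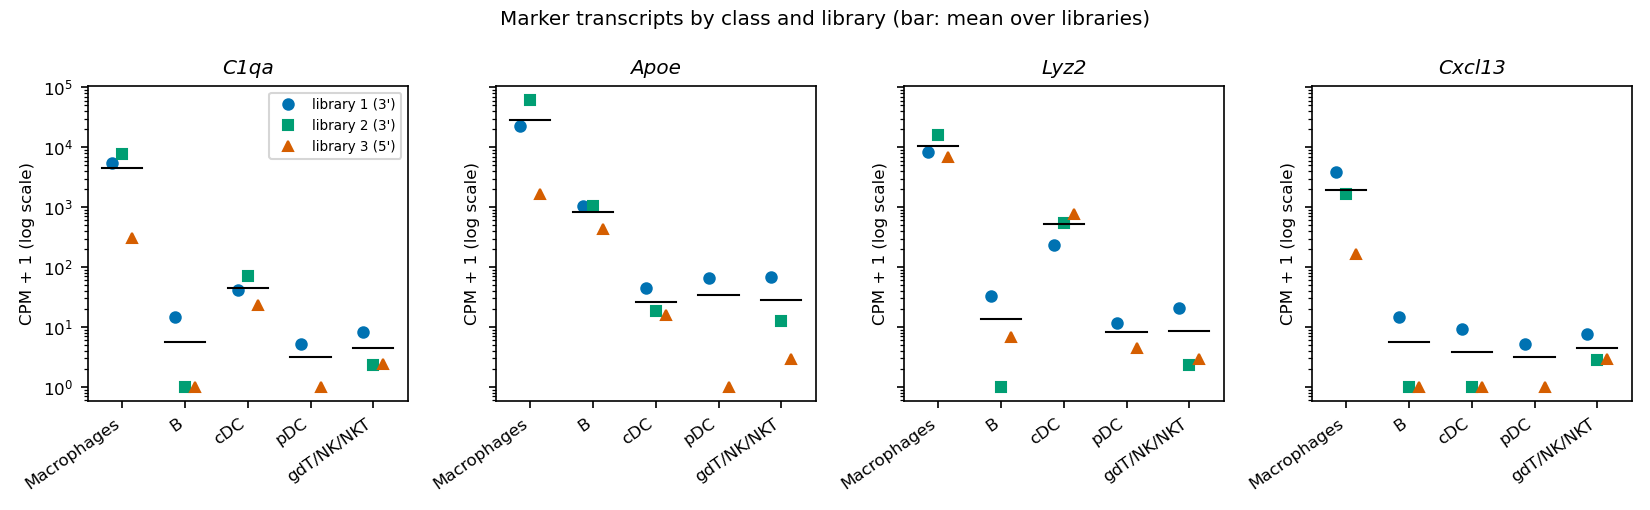
Level of C1qa, Apoe, Lyz2 and Cxcl13 in each class (CPM + 1, log scale), 1 point per library and a bar at the mean over libraries, with 2 libraries for pDC. Macrophages are the highest class for each gene, and their library 3 points for C1qa, Apoe and Cxcl13 (301, 1680 and 164 CPM) lie far below those of libraries 1 and 2.

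B cell, cDC and pDC markers were far lower in macrophages than in those classes. Summed over 6 genes, B cell markers reached 67.2, 18.8 and 16.0 CPM, against 5775, 4600 and 5383 CPM in B cells. The 7 cDC markers summed to 28.4, 14.8 and 25.3 CPM, against 857, 2504 and 1098 CPM in cDC, and Xcr1 was at 0 UMIs in macrophages. The 6 pDC markers summed to 162, 104 and 58.6 CPM in macrophages, against 8379 and 6683 CPM in pDC. Neutrophil markers summed to 172, 377 and 180 CPM in macrophages and to no more than 2.23 CPM in B cells or cDC. Csf3r and S100a8 made up most of this sum. S100a9 had UMIs in library 1 and none in any cell of libraries 2 and 3, so the sums cover different genes. Ly6g was at 0 UMIs, and the part of this RNA in the results was not tested. NK, plasma, mast, fibroblast and endothelial cell markers summed to 41.3 CPM or less in every library. The mast and fibroblast sums rest on few genes. Only 2 of 5 listed mast cell genes and 2 of 4 fibroblast genes were in the count table, and Tpsb2 of mast cells was at 0 UMIs. Schwann cell markers summed to 61.1, 153 and 45.3 CPM, mainly Pmp22 and Mbp.

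The promoters of 4 genes that were high in macrophages are shown because 3 of them hold a match to the motif of PU.1 (GAGGAAG, both strands searched), the factor encoded by Spi1 that is central to the myeloid lineage, and 1 does not. They are RefSeq sequences of build GRCm38.p6, 5′ to 3′ on the strand of the gene, from 250 bases before to 50 after its start. Capitals mark the match, which reads CTTCCTC where it lies on the opposite strand. Among other macrophage genes searched, Ccl8 held a match, while Cxcl13, Lyz2, Apoe, Chil1 and Ccl12 held none. Of the 16 promoters found for the 20 genes with the largest margins, named below, 4 (25.0%) held a match. The promoters shown are thus not typical in this. C1qb and C1qc are neighbours on chromosome 4.
C1qb promoter, chr4:136886151-136886450, minus strand: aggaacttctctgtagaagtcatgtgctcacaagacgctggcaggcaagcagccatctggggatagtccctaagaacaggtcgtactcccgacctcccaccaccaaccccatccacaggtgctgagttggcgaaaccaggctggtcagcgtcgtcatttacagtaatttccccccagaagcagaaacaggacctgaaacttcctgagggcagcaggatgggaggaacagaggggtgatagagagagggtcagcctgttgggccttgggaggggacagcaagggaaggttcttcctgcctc
C1qc promoter, chr4:136892865-136893164, minus strand: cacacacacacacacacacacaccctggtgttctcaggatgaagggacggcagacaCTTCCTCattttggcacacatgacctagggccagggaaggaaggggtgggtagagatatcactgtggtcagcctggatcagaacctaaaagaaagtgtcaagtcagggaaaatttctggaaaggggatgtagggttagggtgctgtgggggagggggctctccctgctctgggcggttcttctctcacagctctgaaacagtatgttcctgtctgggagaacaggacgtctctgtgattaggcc
Trem2 promoter, chr17:48346151-48346450, plus strand: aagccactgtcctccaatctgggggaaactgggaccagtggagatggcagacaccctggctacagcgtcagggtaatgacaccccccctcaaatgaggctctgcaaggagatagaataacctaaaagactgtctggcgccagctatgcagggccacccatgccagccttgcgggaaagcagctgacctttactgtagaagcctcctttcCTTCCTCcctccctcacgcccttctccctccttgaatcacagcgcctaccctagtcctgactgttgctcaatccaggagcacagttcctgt
Fcgr1 promoter, chr3:96293920-96294219, minus strand: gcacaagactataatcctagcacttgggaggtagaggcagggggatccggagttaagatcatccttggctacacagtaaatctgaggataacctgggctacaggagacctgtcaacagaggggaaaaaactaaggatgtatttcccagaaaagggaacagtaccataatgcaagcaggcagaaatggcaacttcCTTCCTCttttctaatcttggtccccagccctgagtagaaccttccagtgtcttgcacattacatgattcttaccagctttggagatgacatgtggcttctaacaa

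The match was found in 13.6% of all 32851 promoters of this length and in 20.9% of the 206 promoters of genes counted as higher than all 4 classes. For the C/EBP motif (TTGCNNAA) the shares were 10.8% and 15.0% and for the AP-1 motif (TGANTCA) 7.81% and 11.2%. For the interferon-stimulated response element they were 3.44% and 8.74%. For the last of the motifs searched, TGCTGAC, the share was 4.67% of all promoters and 4.37% of the 206. These shares describe letters in a window, and no binding was measured. Spi1 itself was at 302, 296 and 353 CPM in macrophages and at 376, 279 and 525 CPM in cDC, a ratio of -0.26 ± 0.33 (SD, n = 3). Cebpb, which encodes a C/EBP factor, was higher than in cDC by 3.02 ± 0.48. Cebpa, another, did not meet the rule against cDC, at 239, 612 and 117 CPM in macrophages and 25.0, 45.3 and 66.1 CPM in cDC.

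Over all genes, cDC were the class nearest to macrophages. Of 7235 genes measured against cDC, 359 (4.96%) were higher in macrophages and 224 (3.1%) lower. Against B cells 865 of 7643 (11.3%) were higher and 471 (6.16%) lower. Against pDC 887 of 7495 (11.8%) were higher and 593 (7.91%) lower, and against gdT/NK/NKT 877 of 7548 (11.6%) were higher and 488 (6.47%) lower. The counts against pDC rest on 2 libraries, and without library 1 they became 1424 and 1086. Without TMM scaling the median ratio over all genes moved from -0.07 to -0.29 against gdT/NK/NKT and from 0.04 to -0.18 against pDC. The split of higher to lower genes then became 733 to 675 and 727 to 785.

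Higher than in all 4 classes were 214 of 8555 genes (2.5%), and 11 (0.129%) were lower. The 20 genes with the largest margins were Ccl8, Chil1, Cxcl13, C1qc, C1qb, Apoc1, Chil3, Hp, Ccl12, C1qa, Trem2, Arg1, Thbs1, C5ar1, Ms4a7, Fn1, Itgb5, C3ar1, Mgst1 and Lyz2. Chil1, which encodes a secreted chitinase-like protein, was at 1097, 826 and 850 CPM in macrophages and at 4 UMIs in all cDC, a ratio of 7.35 ± 0.09. Hp, encoding haptoglobin, was at 295, 373 and 590 CPM, and its ratio to cDC was 5.88 ± 0.88. Chil3 and Thbs1 (thrombospondin 1) had no UMI in cDC. With cDC set at the floor of 3 counts over the class, Chil3 was at least 307-fold higher in macrophages and Thbs1 at least 207-fold. Itgb5, an integrin chain that takes part in the uptake of dying cells, was higher than in cDC by 4.83 ± 0.03.

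Among the 11 genes lower than in every class were Trp53i11, Tespa1, P2ry10, Plp2, Tmc8, St8sia4, Slc2a3, Zeb1, Tspan13 and Tmem123. Tspan13 was at 42.6, 44.4 and 45.3 CPM, and lower than in B cells by a log2 ratio of -1.34 ± 0.10. With library 3 left out 23 genes met the rule, 9 of the 11 among them, and Tmc8 and Slc2a3 did not. With equal weight per cell 6 genes met it, 4 of the 11 among them.

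Most of the RNA of the macrophage genes in these leukocytes lay in the macrophages. Of all C1qa UMIs of a library, over all 10 classes, they held 97.3%, 99.3% and 87.6% in libraries 1, 2 and 3. For Lyz2 the shares were 95.2%, 98.5% and 94.3%, and for Fn1, encoding fibronectin, 95.9%, 98.6% and 97.5%. Apoe was less exclusive. Macrophages held 89.9%, 98.5% and 55.8% of its UMIs, and B cells 7.37%, 1.08% and 39.6%. B cells carried Apoe at 1055, 1027 and 437 CPM, while cDC, pDC and gdT/NK/NKT were at 66.8 CPM or lower. When cells were thinned to 1000 UMIs, 27.5%, 26.1% and 18.0% of B cells had an Apoe UMI (42.9%, 37.1% and 25.3% before thinning). In cDC, which were deeper, the thinned shares were 3.76%, 2.97% and 3.47%, and in macrophages 77.1%, 91.3% and 42.2%. The log2 ratio of macrophages to B cells for Apoe was 4.42, 5.88 and 1.93 by library. Arg1, encoding arginase 1, lay at 96.3%, 88.8% and 84.9% in macrophages, and in libraries 2 and 3 another 9.79% and 14.2% lay in the authors' class Mixed. A minority of macrophages had an Arg1 UMI, 14.3%, 8.74% and 6.16% when thinned.

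**Figure D2:**
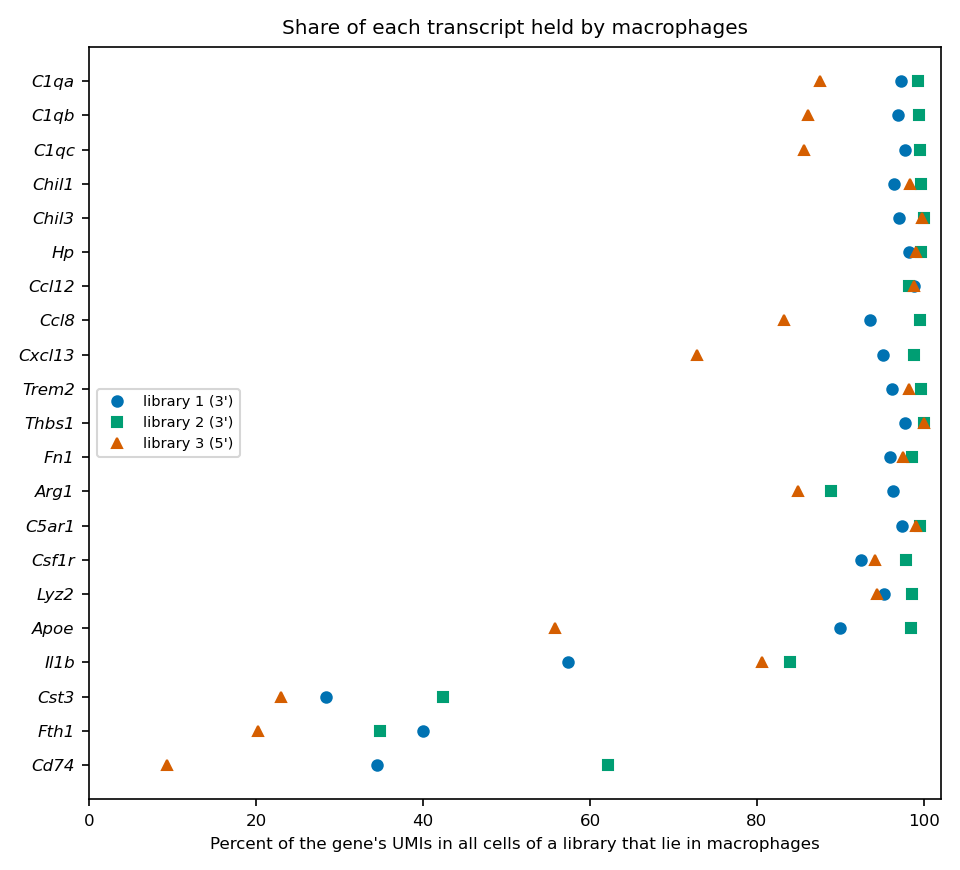
Percent of the UMIs of each gene, over all cells of a library, that lie in macrophages, 1 point per library. Chil3, Hp, Thbs1 and Fn1 lie above 95% in every library, while Apoe falls to 55.8% in library 3 and Cd74, the MHC class II invariant chain, to 9.26%.

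Most genes for complement proteins were higher in macrophages than in each class. Of 9 listed genes for complement proteins, 8 were measured. Against B cells and against gdT/NK/NKT all 8 measured were higher, and against pDC 7 and cDC 6 of 8, with none lower. The median log2 ratio was 5.30 against B cells and 3.69 against cDC, where the medians over all genes were -0.09 and 0.07. Over all genes 11.3%, 11.6%, 11.8% and 4.96% were higher than in B cells, gdT/NK/NKT, pDC and cDC. Of all genes 3.1% were lower than in cDC and 6.47% lower than in gdT/NK/NKT. C3, the central complement protein, was at 505, 289 and 232 CPM, higher than in cDC by 4.08 ± 0.64. Cfb, factor B of the alternative pathway, went the other way over libraries, at 62.0, 80.7 and 574 CPM, yet its ratio to cDC was steady at 3.30 ± 0.18. Among the exceptions against cDC was Cfp, properdin, which stabilises the alternative pathway, at a ratio of -1.30 ± 0.72. The complement receptors were mixed: 3 of 5 measured were higher than in cDC and 1 lower, and likewise against gdT/NK/NKT. Itgax, an integrin chain of complement receptor 4, was the lower one, at 30.3, 6.73 and 20.0 CPM in macrophages, 91.8, 59.2 and 180 CPM in cDC and 124, 98.9 and 287 CPM in gdT/NK/NKT. C3ar1 was higher than in cDC by 4.73 ± 0.07. C5ar1 was at 103, 262 and 398 CPM, with 2 UMIs in all cDC.

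Receptors for antibody and for microbial or dying material followed. Of 7 genes in the Fc receptor list, which also holds Ms4a7, 6 were higher than in B cells, 6 than in cDC, 6 than in pDC and 7 than in gdT/NK/NKT. Over all genes the shares higher than in these classes were 11.3%, 4.96%, 11.8% and 11.6%. Fcgr1, the high-affinity IgG receptor, was at 1109, 1357 and 893 CPM, with 9 UMIs in all B cells, and exceeded cDC by 2.87 ± 0.48. Fcgr3 exceeded cDC by 4.28 ± 0.16. The exception against cDC was Fcgrt, the neonatal Fc receptor, at 80.9, 83.4 and 51.9 CPM in macrophages and 196, 83.6 and 250 CPM in cDC. Of the pattern receptors, 11 of 11 measured were higher than in gdT/NK/NKT and 7 of 12 than in cDC. Cd14, the co-receptor for lipopolysaccharide, was at 1341, 4101 and 1810 CPM and exceeded cDC by 3.08 ± 0.80. Tlr7 was lower than in pDC, at 29.3, 51.1 and 22.6 CPM against 88.1 and 160 CPM in pDC libraries 1 and 3. Among scavenger receptors Msr1 was at 130, 121 and 133 CPM and Stab1 at 89.5, 156 and 134 CPM, and neither passed 7.35 CPM in another class. Timd4, a receptor for phosphatidylserine on dying cells, went against its list: it was at 20.4, 10.8 and 7.99 CPM in macrophages and at 169, 45.3 and 195 CPM in cDC.

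Lysosomal genes separated macrophages from lymphocytes more than from dendritic cells. Of 16 measured, 16 were higher than in B cells (median ratio 3.48), 15 than in gdT/NK/NKT (4.78), 7 than in cDC (1.59) and 8 than in pDC (1.51). Over all genes the shares higher than in these classes were 11.3%, 11.6%, 4.96% and 11.8%. Ctsb, cathepsin B, was at 1783, 2521 and 1296 CPM, higher than in cDC by 2.82 ± 0.86, but at -0.04 ± 0.81 against pDC. Ctsl, cathepsin L, was lower than in pDC, with 249 and 133 CPM against 1426 and 1813 CPM in libraries 1 and 3. Ctsd, cathepsin D, was the lysosomal gene that did not meet the rule against gdT/NK/NKT, at 709, 1458 and 454 CPM in macrophages and 693, 757 and 966 CPM there. Cst3, the cathepsin inhibitor cystatin C, was at 5017, 7672 and 3154 CPM in macrophages and 11566, 14148 and 11683 CPM in cDC. It was lower in each library but did not meet the rule, since library 2 differed by less than 2-fold. Lipid genes gave 12 of 15 higher than in B cells and 6 of 15 than in cDC. Trem2, a lipid receptor of macrophages, was at 626, 1267 and 149 CPM, with log2 ratios to cDC of 5.56, 6.73 and 4.15 by library. Tyrobp, its signalling partner, was at 3943 and 4360 CPM in pDC and 2301 and 2320 CPM in macrophages in libraries 1 and 3. These levels differed by less than 2-fold and did not meet the rule.

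Of 21 listed chemokines, 19 were measured and 12 were higher than in all 4 classes, against 2.5% of all genes. Against cDC 13 of 19 were higher and 2 lower, where 4.96% and 3.1% of all genes were. Against B cells 16 of 17 measured were higher, with a median ratio of 5.68, where 11.3% of all genes were higher. Ccl8 was at 2068, 3951 and 405 CPM, with 3 UMIs in all cDC. The ratio over the libraries together was 1657-fold with a counting interval of 567 to 8036. This interval leaves out the spread between libraries. In library 3, 1 cDC cell had a Ccl8 UMI, and 1 UMI is worth 3.67 CPM there, against 405 CPM in macrophages. Taken within libraries, the mean log2 ratio to cDC was 7.87, and it ranged from 7.03 to 8.95 with a library left out. Ccl12, a ligand of the monocyte receptor Ccr2, was at 391, 304 and 453 CPM, and Ccl2, another, at 198, 673 and 357 CPM. Cxcl9, which attracts activated T cells through Cxcr3, was at 2644, 854 and 943 CPM and exceeded cDC by 1.70 ± 0.62. Cxcl10, a second ligand of Cxcr3, exceeded cDC by 1.92 ± 0.78. With equal weight per cell neither met the rule against cDC (1.58 for Cxcl9 and 1.37 for Cxcl10), and Cxcl10 did not without TMM scaling (1.80). The chemokines that went against the list were Ccl22 and Ccl17, lower than in cDC, Ccl4, lower than in pDC, and Ccl5, lower than in gdT/NK/NKT. Ccl22 was at 98.0, 153 and 22.0 CPM in cDC and at no more than 1.35 CPM in macrophages. Ccl17, at 170, 20.9 and 7.35 CPM in cDC, no longer met the rule with a library left out. Ccl5 was at 3371, 1971 and 2023 CPM in macrophages and 8217, 14589 and 6083 CPM in gdT/NK/NKT.

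Among cytokines, Il1b was shared with cDC: 1715, 3019 and 3908 CPM in macrophages and 1412, 1459 and 2347 CPM in cDC, a ratio of 0.69 ± 0.39 that did not meet the rule. Its natural antagonist Il1rn was at 223, 535 and 433 CPM in macrophages and exceeded cDC by 2.94 ± 0.25. Il12b, a subunit of interleukin 12, was lower than in cDC, where it was at 29.5, 55.7 and 36.7 CPM, but did not meet the rule with equal weight per cell. Interferon response genes gave 13 of 14 higher than in B cells but 3 of 14 higher than in cDC and 1, Ifi205, lower. Over all genes 11.3% were higher than in B cells, 4.96% were higher than in cDC and 3.1% lower than in cDC. Isg15, an interferon-induced ubiquitin-like protein, was at 223, 218 and 1043 CPM in macrophages and 219, 101 and 551 CPM in cDC, and library 3 was the highest in both classes.

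Matrix and repair genes were higher in macrophages for 10 of 10 measured against B cells, cDC and gdT/NK/NKT, and for 9 of 10 against pDC. Over all genes the shares higher than in these classes were 11.3%, 4.96%, 11.6% and 11.8%. Tgfbi, an extracellular matrix protein induced by TGF-β, was at 1826, 1487 and 1746 CPM. Fn1 was at 639, 735 and 766 CPM and exceeded cDC by 4.84 ± 0.65. These libraries overlapped closely, unlike those of C1qa. Vegfa, the angiogenic growth factor, was at 240, 319 and 79.9 CPM. Lists not described singly included growth factor receptors, clotting and eicosanoid genes. They gave 6 of 13, 4 of 6 and 2 of 8 higher than in cDC, against 4.96% of all genes measured. Iron and oxidant genes gave 9 of 11 higher than in cDC. Slc11a1, a metal transporter of the phagosome, was at 122, 182 and 160 CPM and exceeded cDC by 4.24 ± 0.43. Ftl1, ferritin light chain, exceeded cDC by 1.14 ± 0.10, and by 1.02 without TMM scaling, where it no longer met the rule in every library. Of the 4 to 6 cell cycle genes measured per class, none was higher. Against gdT/NK/NKT 1 of 6 was lower, where 6.47% of all genes were lower. So few genes cannot tell the list apart from all genes. Mki67 was at 20.8, 14.8 and 28.0 CPM in macrophages.

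**Figure D3:**
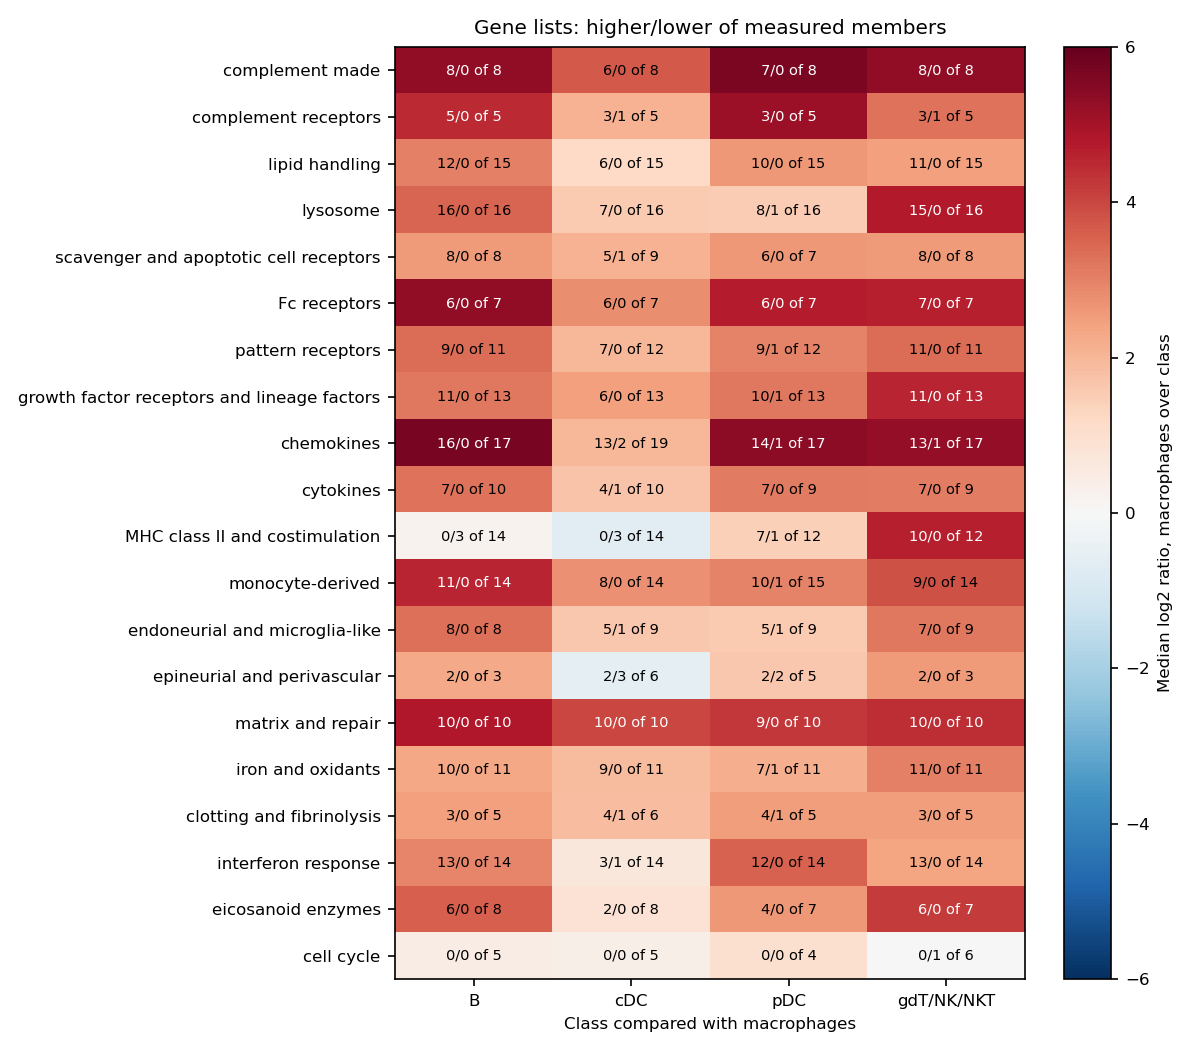
Median log2 ratio of macrophages over each class (colour) for each gene list, with the number of members higher and lower of those measured printed in the cell. The row of matrix and repair genes has 10 of 10 higher in 3 columns, and MHC class II and costimulation has none higher against B and cDC.

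MHC class II genes did not set macrophages above the other presenting cells. Of 14 members none was higher than in B cells or cDC and 3 were lower than in each. Against gdT/NK/NKT 10 of 12 were higher. Over all genes 11.3% were higher than in B cells, 4.96% than in cDC and 11.6% than in gdT/NK/NKT. Of all genes 6.16% were lower than in B cells and 3.1% lower than in cDC. H2-Aa was at 9154, 15677 and 3055 CPM in macrophages, 8970, 15095 and 15437 CPM in cDC and 5499, 7403 and 9414 CPM in B cells. The log2 ratio to B cells was 0.73, 1.08 and -1.62 in libraries 1, 2 and 3, so it turned over in library 3. Cd74 did the same, at 0.83, 1.28 and -1.37. The H2-Aa level of B cells and of cDC was at its highest in library 3. Why macrophages were lower there was not tested.

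The 3 members that were lower than in both B cells and cDC were H2-DMb2, H2-Oa and H2-Ob. H2-Oa and H2-Ob encode the chains of H2-O. H2-Oa was at 11.8, 2.69 and 5.33 CPM in macrophages and 191, 157 and 154 CPM in cDC, a ratio of -3.96 ± 0.42. H2-Ob was at 13.3 CPM in library 1 and at 0 UMIs in libraries 2 and 3, where 3 counts would be 4.04 and 3.99 CPM. H2-DMb1 and H2-DMb2 are near-identical genes for the H2-DM beta chain, and the counting may split their reads uncertainly. Of the UMIs of the 2 genes together, H2-DMb2 took 6.72%, 4.37% and 65.6% in macrophages. It took 33.4%, 23.9% and 74.3% in cDC and 81.1%, 74.5% and 94.1% in B cells. The order macrophages, cDC, B held in every library, although the exact 95% intervals of macrophages (60.7 to 70.2) and cDC (69.6 to 78.7) overlapped in library 3. In all 5 classes the share was highest in the 5′ library, with few UMIs in gdT/NK/NKT.

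**Figure D4:**
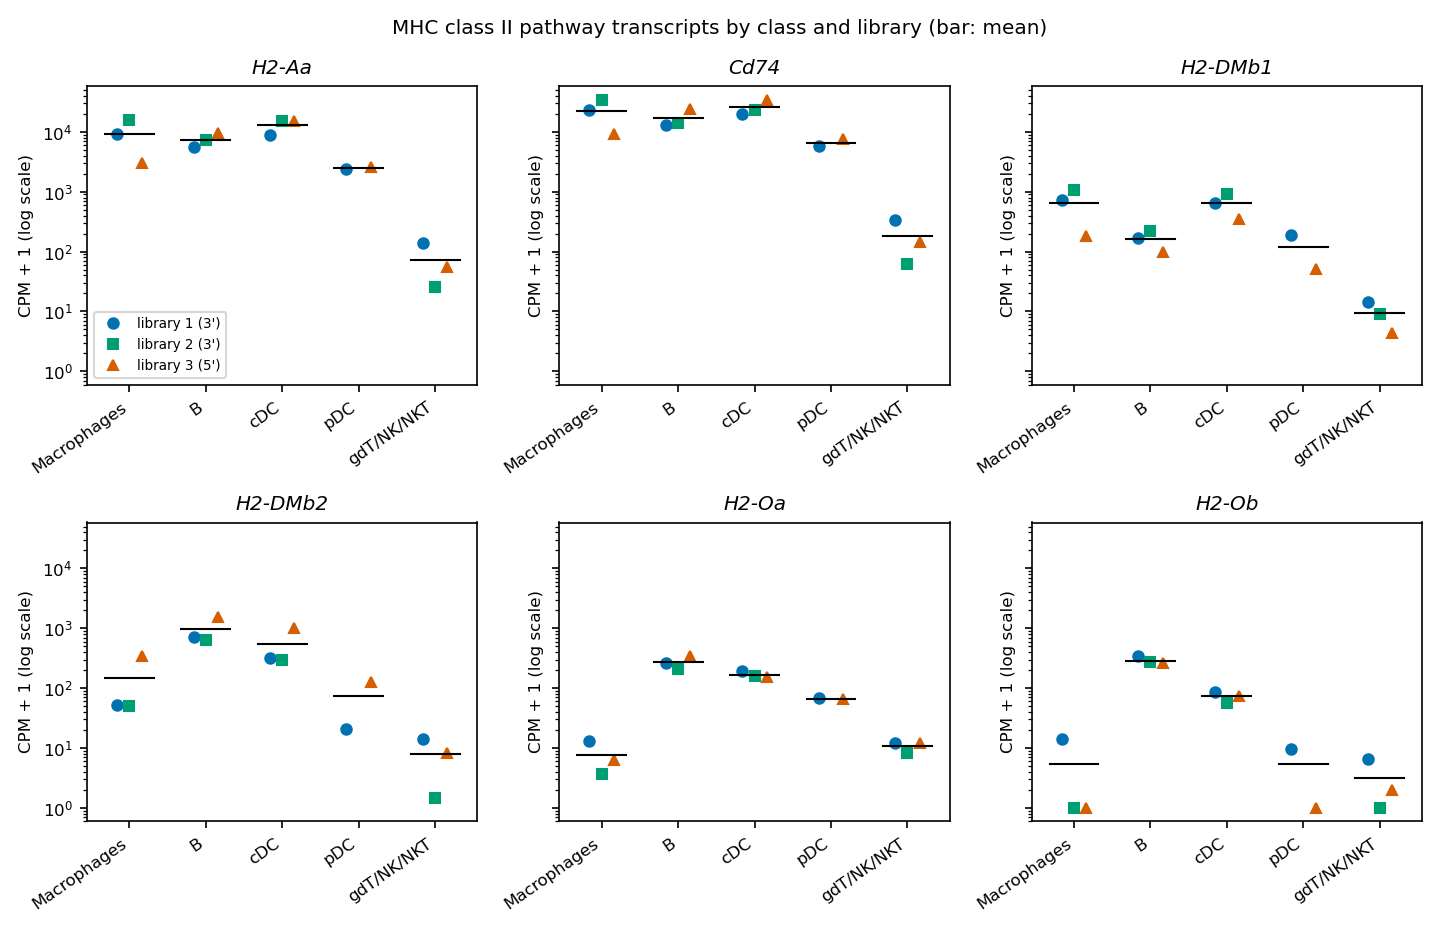
Level of 6 MHC class II pathway genes by class (CPM + 1, log scale), 1 point per library and a bar at the mean. Macrophages share the range of B cells and cDC for H2-Aa and Cd74 except in library 3, and fall below both for H2-DMb2, H2-Oa and H2-Ob.

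The macrophages of the 3 libraries were not alike. Of the 214 genes higher than all 4 classes, 30 (14.0%) were at least 2-fold lower in library 3 than in both others, against 6.61% of 7167 genes expressed in macrophages. Library 2 was at least 2-fold above both others for 19 (8.88%) against 1.30% of the 7167, and library 1 below both for 12 (5.61%) against 0.991%. Library 3 was above both for 9 (4.21%) against 4.35%. The 7167 were not cleared of genes missing from a library, and such genes cannot be among the 214. The shares of the 214 and of the 7167 are thus not like for like. How far the missing genes moved the shares of the 7167 was not tested. The genes that follow show library 3 against the others: some were lowest there, some differed little over libraries and some were highest there. C1qb was at 4552, 5867 and 238 CPM, and Ms4a7 at 470, 609 and 69.2 CPM. H2-Ab1 was at 8929, 13496 and 1563 CPM. Csf1r, the receptor for the growth factor that macrophages depend on, was at 799, 659 and 639 CPM. Fcgr1, Tgfbi, Fn1 and Chil1 also differed by less than 2-fold over libraries. Ly6c2, a marker of inflammatory monocytes, was highest in library 3, at 405, 277 and 1023 CPM, and Plac8 was at 1518, 1148 and 3087 CPM. In cDC Ly6c2 was at 70.1, 27.9 and 58.8 CPM and Plac8 at 1242, 992 and 1175 CPM. The cDC share with a Ly6c2 UMI, thinned to 1000 UMIs, was 4.83%, 1.59% and 5.24%. The 5′ method, the library and the make-up of the macrophages cannot be told apart here.

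**Figure D5:**
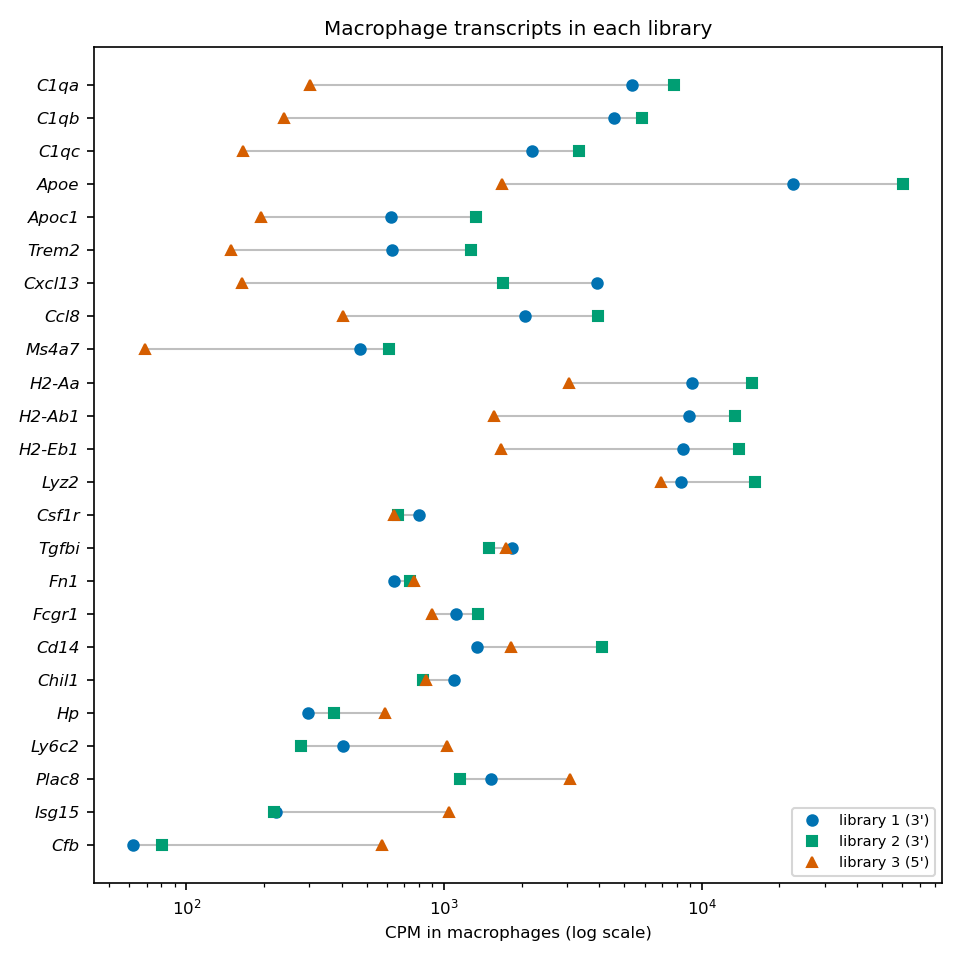
Level of 24 genes in the macrophages of each library (CPM, log scale), 1 point per library joined by a line over the range. The upper genes, from C1qa to H2-Eb1, are lowest in library 3, Csf1r, Tgfbi and Fn1 lie close together, and Ly6c2, Plac8, Isg15 and Cfb are highest in library 3.

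Counted by cell, the macrophages differed in the same genes within a library. Cells with a UMI of any C1q chain and none of Ly6c2 numbered 150, 65 and 14 in libraries 1, 2 and 3 of 367, 106 and 108 macrophages. Cells with Ly6c2 and no C1q numbered 62, 19 and 64, the most in library 3. A further 123, 14 and 14 cells had both. H2-Ab1, which took no part in this grouping, was at 11057, 13399 and 5423 CPM (unscaled) in the cells with C1q alone and at 2443, 6961 and 976 CPM in those with Ly6c2 alone. Plac8 ran the other way, at 113, 48.8 and 755 CPM against 3225, 2229 and 3713 CPM. Lyz2 was at 6196, 11427 and 5080 CPM against 9789, 11955 and 8497 CPM. The cells with C1q alone in library 3 were shallow, with a median of 1740.5 UMIs against 8093.5 in those with Ly6c2 alone. They also held more T cell RNA, with Cd3e at 847 against 281 CPM in library 3, and its part in these values was not tested. A cell without a UMI of a gene may still express it. When cells were thinned to 1000 UMIs, 61.7%, 68.3% and 11.3% of macrophages had a C1qa UMI (68.7%, 70.8% and 17.6% before) and 22.4%, 13.3% and 46.5% a Ly6c2 UMI (50.4%, 31.1% and 72.2% before). In B cells, which should lack both, the thinned shares did not pass 1.07% for C1qa and 0.184% for Ly6c2. In pDC the thinned Ly6c2 shares were 24.3% and 26.1%.

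Genes of monocyte origin were higher than in B cells for 11 of 14 and than in cDC for 8 of 14. Over all genes 11.3% were higher than in B cells, 4.96% were higher than in cDC and 3.1% lower than in cDC. Ccr2, the receptor that brings monocytes into tissue, was shared with cDC, at 492, 248 and 724 CPM and a ratio of 0.59 ± 0.10. Of genes reported for endoneurial and microglia-like macrophages, 5 of 9 measured were higher than in cDC and 1 lower. Cx3cr1, the fractalkine receptor, was at 797, 565 and 238 CPM. Genes of epineurial and perivascular macrophages were scarce: 3 of 12 could be measured against B cells. Lyve1 was at 4.26 CPM in library 1 and at 0 UMIs in the others, and Cd163 at no more than 1.42 CPM. F13a1, a coagulation factor subunit, was the most abundant of that list, at 203, 116 and 233 CPM. Clec10a and Mgl2, which encode related lectins, were lower in macrophages than in cDC. The genes Vsig4, Marco, Clec7a, Sall1, Retnla, Mmp12, Mmp13, Slc40a1 and F3 were not analysed here.

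The genes lowest in macrophages included markers of each other class, and some were shared between classes. Cd7, a surface protein of T and NK cells, stood at -6.10 ± 0.56 against gdT/NK/NKT and -5.76 ± 0.06 against pDC. Cd79a, a chain of the B cell receptor, was at 17.0, 1.35 and 2.66 CPM in macrophages and at 2183, 2168 and 2859 CPM in B cells. Against cDC the lowest ratios included Fscn1, at 196, 707 and 433 CPM in cDC and no more than 4.04 CPM in macrophages, which shapes the dendrites of mature dendritic cells. Flt3, their growth factor receptor, stood at -4.60 ± 0.62 against cDC and -4.66 ± 0.40 against pDC. Xcr1, Cldn1 and Cacnb3 were at 0 UMIs in macrophages. Against pDC Siglech stood at -8.16 ± 0.20 (n = 2 libraries) and Ccr9 at -7.18 ± 0.69. Irf8, a lineage factor of pDC, was lower in macrophages than in pDC by a ratio of -2.50 ± 0.55. Against gdT/NK/NKT the cytotoxic gene Gzma was at no more than 1.42 CPM in macrophages and at 687, 132 and 1034 CPM in gdT/NK/NKT. Gzmb was at 0.947, 0 and 25.3 CPM in macrophages. The T cell markers also summed highest in the library with the highest Gzmb value, and the part of T cell RNA in it was not tested.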

How the data were processed

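The authors deposited a table of UMI counts for 17168 genes in 11640 cells and a cell table with classes, totals and the mitochondrial percent the authors computed per cell; the counts are unscaled. The tools named in the submitters' processing notes are Seurat 4.0 and Cell Ranger 5.0.1, and the build is mm10. Totals recomputed from the counts equal the deposited totals in all 11640 cells. No deposited column of cells was left unused (0 columns). Libraries were matched to samples by number and by cell number (6033, 2333 and 3274).

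Counts were added up within a class and library that had at least 20 cells, giving sums of 701173 to 2529605 UMIs for macrophages. Sums were scaled by TMM in edgeR 4.0.16 (R 4.3.3). Ratios used a pseudocount of 5 CPM, and a gene counted as measured where the mean over the pair of classes was at least 10 CPM. Folds against 3 counts or fewer use the floor of 3 counts over the class or an exact 95% interval. Intervals and floors cover counting error only. Cells were thinned to 1000 UMIs by the expected share, and 4, 3 and 3 shallower macrophages were left out. The procedure was tested on simulated data.

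The members and gene lists were chosen with earlier results of these data known. Named genes are C1qa, Apoe, Lyz2 and Cxcl13, the 20 largest margins over all 4 classes, the 10 largest ratios in each direction per class, the 4 most abundant members of each list with those at 0 or against their list, and the 10 widest ranges over libraries; antigen receptor, mitochondrial, ribosomal and unnamed genes were passed over. Vegfa, Cfp, Fcgrt, Ms4a7, Slc11a1, Plac8 and other list members outside this rule were named after their values were seen, and so was the grouping of cells by C1q and Ly6c2. Alternatives were other scalings (none, DESeq2 1.42.0 size factors), pseudocounts of 1 and 20 CPM, no filter or 50 CPM, no doublets, equal weight per cell, an edgeR quasi-likelihood fit with the library as a block, all pDC sums, and each library left out. A further alternative, setting aside genes absent from a library, was added after seeing the data. A few genes are not reported here.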

Additional observations from a re-analysis of the deposited data

How the results depend on the processing

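With a pseudocount of 20 CPM, 573 genes were higher and 247 lower than in B cells, 220 and 114 than in cDC, 574 and 354 than in pDC, 567 and 259 than in gdT/NK/NKT, and 4 lower than in all 4. With a minimum of 50 CPM the counts were 441 and 206 for B cells, 204 and 105 for cDC, 412 and 249 for pDC, 426 and 195 for gdT/NK/NKT, and 121 and 4 for all 4; fewer genes were then tested. The edgeR quasi-likelihood fit with the library as a replicate block (log2 fold change of at least 1, adjusted p under 0.05) gave 1375 and 1310 for B cells, 810 and 503 for cDC, 977 lower for pDC, 1371 and 1112 for gdT/NK/NKT, and 433 and 47 for all 4. It asks no fold of every library, and since the classes were drawn from the same counts its p-values are no independent test. With all pDC sums, 276 genes were lower than in pDC. Genes lower than in all 4 numbered 17 without further scaling and 6 with equal weight per cell.

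With a library left out, higher and lower genes ranged from 949 to 1424 and from 570 to 1086 for pDC, the highest without library 1, which leaves library 3 alone. Genes lower than in all 4 ranged from 13 to 23, the highest without library 3. The median UMIs per cell, macrophages against pDC, differed by 231.75, and this ranged from -314.5 without library 1 to 778 without library 3. Over 710 ratios of named genes the sign was kept in every one of 9 settings, but calls were kept in 605 with a pseudocount of 20 CPM, 682 with equal weight per cell and 692 without further scaling, and 675 kept theirs whichever library was left out. Of the 35 that did not, Vcan and Tmc8 lost their calls against all 4 classes, and 188 ratios moved by over 1.5 times. With 3 libraries, or 2 for pDC, and 28 to 34 cDC in libraries 2 and 3, 1 UMI is worth 3.48 and 3.67 CPM there, so low cDC levels are uncertain.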
